A study of Mus musculus with 12 samples.

Results

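The genes described are 32 members of the sterol and fatty acid synthesis programme, chosen by name: 18 enzymes of cholesterol synthesis, 4 regulators and sterol carriers, 3 genes of the liver X receptor and sterol efflux, and 7 genes of fatty acid synthesis. Of these, 31 were measured, among 25947 genes and transcripts in all, and each of the 31 was well above background on all 12 arrays. Acat2 was not analysed here, since no probe carried that name. The samples were whole kidneys of male mice on a C57/6J background, 3 per group, read on one-colour microarrays. The groups were Jaml knockout (KO) mice 24 h after ischemia-reperfusion injury (IRI), KO mice after a sham operation, wild-type (WT) mice 24 h after IRI and WT mice after a sham operation. IRI closes the renal vessels of both sides for a time and reopens them. Clamping lasted 40 min by the series design and ligation 30 min by the treatment protocol. The sources used here do not say how the Jaml allele was made or in which cells it was lost. The design asks how the kidney responds to IRI with and without Jaml, which encodes a junctional adhesion molecule-like protein of leukocytes.

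Cholesterol is built from acetyl-CoA through mevalonate and isoprenoids to squalene, which is closed into lanosterol and then trimmed and reduced to cholesterol. The transcription factor SREBP-2, encoded by Srebf2, drives most of these enzymes when membrane sterol is low, and Insig1 holds SREBP in the endoplasmic reticulum when sterol is high. SREBP-1, encoded by Srebf1, acts mainly on fatty acid synthesis. Oxysterols activate liver X receptors, which induce the cholesterol exporters Abca1 and Abcg1. In the kidney the tubule epithelium depends largely on fatty acid oxidation for energy, and it both makes and takes up cholesterol.

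All levels are log2 processed signals minus the array's 75th percentile, so a value of 0 is the 75th percentile of the probes on that array. Levels can be compared between samples for a gene, but not between genes, since each probe binds differently. Between 35598 and 38522 of 56605 probes were well above background on each array. Jaml itself read -1.89 or lower on the 6 KO arrays and -1.80 to 0.55 on the 6 WT arrays. Its probe was still well above background on every KO array, and the KO and WT ranges lay close together. Jaml was lower in KO sham than in WT sham kidneys (-2.79 ± 0.55 log2, SE, limma adjusted p = 0.0152), and the difference after IRI did not pass (adjusted p = 0.153). All KO arrays were on 1 slide and all WT arrays on another, so genotype and slide cannot be told apart, while each IRI response lies within 1 slide. In whole kidney RNA, fewer cells of a type and less RNA per cell cannot be told apart.

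Some arrays stood apart from their group in these genes. WT sham replicate 3 was the lowest WT sham array for 26 of 31 members (83.9%), against 38.5% of all genes. Its T and NK cell marker sum was 1.72, against 14.1 and 13.5 in WT sham replicates 1 and 2. That sum was 0.55 to 1.56 in the other groups, so on this measure WT sham replicates 1 and 2 stood apart. WT IRI replicate 1 was lowest for 15 members and highest for 11, and it lay farthest from its group mean over all genes, at a root mean square of 0.579 log2 against 0.205 to 0.433 on the other 11 arrays. KO sham replicate 2 was the lowest KO sham array for 20 members (64.5%), against 43.4% of all genes. For some of the comparisons below that use these arrays, results without them are also given.

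KO sham kidneys had the highest mean levels of the sterol enzymes, and both injured groups had low ones. The mean level of the 17 measured sterol enzymes, each centred over the 12 arrays, was -0.31, -0.06 and -0.14 in KO IRI kidneys, against 0.61, 0.30 and 0.52 in KO sham kidneys. In WT IRI kidneys it was -0.51, -0.28 and -0.27, against 0.22, 0.26 and -0.33 in WT sham kidneys. The KO groups did not overlap, and the WT groups overlapped because WT sham replicate 3 lay below 2 of the 3 WT IRI arrays. The same means over the 7 fatty acid genes were -0.11, -0.16 and 0.05 in KO IRI against 0.29, 0.25 and 0.27 in KO sham kidneys, and -0.20, -0.07 and -0.04 in WT IRI against 0.07, 0.08 and -0.42 in WT sham kidneys. WT sham replicate 3 was the lowest of all 12 arrays on this measure.

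**Figure D1:**
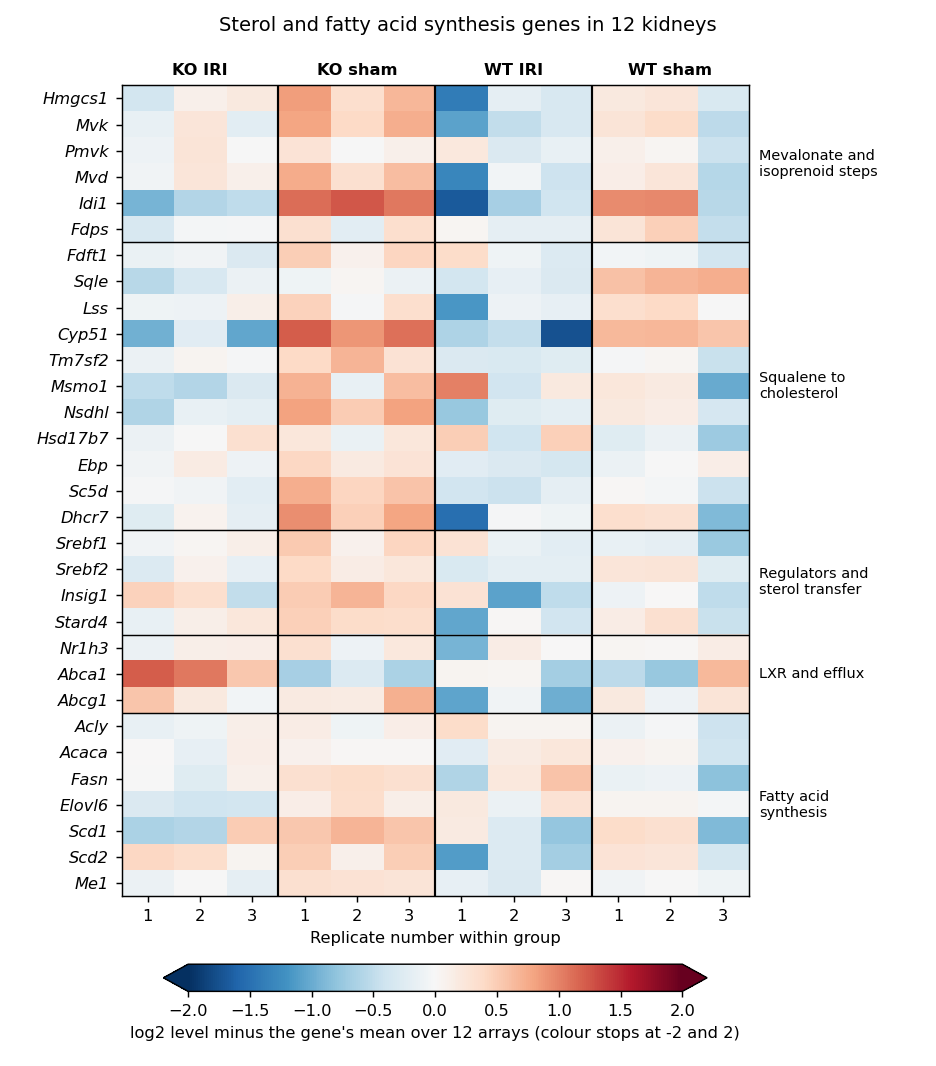
Levels of the 31 measured members (rows, by role) on the 12 arrays (columns, by group), as log2 level minus the gene's mean over the arrays, red above and blue below that mean. The KO sham columns are mostly red, the sterol enzyme rows of the WT IRI columns mostly blue, and WT sham replicate 3 is bluer than the other 2 WT sham arrays.

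After IRI in KO kidneys, sterol enzymes were lower and the cholesterol exporter Abca1 was higher. Of the 31 members, 5 fell (Idi1, Cyp51, Nsdhl, Sc5d and Elovl6), where 4.05% of all genes fell, and 1 rose (Abca1), where 2.1% of all genes rose. In either direction 19.4% of the members passed the limma test, against 6.16% of all genes. The log2 fold change was below 0 for 30 of 31 members, against 60.1% of all genes, and Abca1 was the exception. The members' median was -0.38 and the median of all genes -0.08. The IRI arrays lay below all sham arrays for 19 members (61.3%), against 21.8% of all genes, and above them for 1 member, Abca1, against 13.9% of all genes. By role, 13 of 17 sterol enzymes, 2 of 4 regulators and carriers, 0 of 3 liver X receptor and efflux genes and 4 of 7 fatty acid genes lay lower without overlap. These calls depended on single arrays: 0 of the members passed without KO sham replicate 1, 1 without KO sham replicate 3, KO IRI replicate 1 or KO IRI replicate 3, 2 without KO IRI replicate 2 and 3 without KO sham replicate 2. The shares of all genes that passed with an array left out are not given here. Without those shares, such counts, here and below, show nothing particular to the members. With each of the 12 arrays left out in turn, WT arrays included, the count ran from 0 to 8. The members' median stayed between -0.43 and -0.37 whichever array was left out.

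After IRI in WT kidneys, the 2 members that passed were enzymes of the same stretch of the pathway, Sqle and Cyp51, and both fell, where 5.9% of all genes fell. No member rose, where 6.08% of all genes rose. The share of members that passed was 6.45%, against 12% of all genes. The log2 fold change was below 0 for 21 of 31 members, against 50.6% of all genes, with a median of -0.24 against -0.01 for all genes. The IRI arrays lay below all sham arrays for 4 members (Sqle, Cyp51, Lss and Ebp; 12.9%), against 15.1% of all genes, and above them for Acly alone, against 17.2% of all genes. Of the 17 sterol enzymes, 13 had a fold change below 0, and of the 7 fatty acid genes 3 did. Leaving out WT sham replicate 3 or WT IRI replicate 2 raised the count of members that passed to 5, and leaving out WT sham replicate 1 or 2 lowered it to 1, Sqle.

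**Figure D2:**
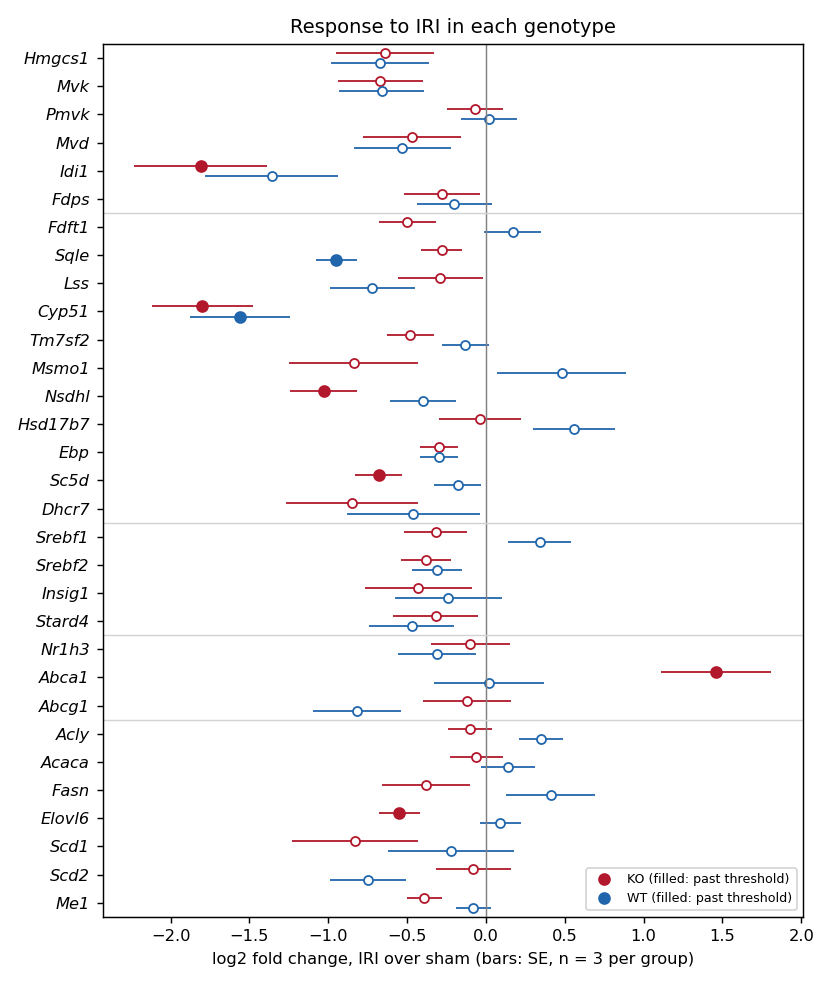
Log2 fold change of IRI over sham for each member in KO kidneys (red, upper of each pair) and WT kidneys (blue, lower), with bars of 1 SE from the limma fit and filled points past the threshold. Cyp51 is far below 0 in both genotypes, Sqle is filled in WT and Abca1 stands to the right in KO.

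In sham-operated kidneys most members read higher in KO than in WT, and Sqle read lower. The limma test called Sc5d and Tm7sf2 higher, where 5.12% of all genes were higher, and Sqle lower, where 3.73% of all genes were lower. That is 9.68% of the members, against 8.85% of all genes. The log2 fold change was above 0 for 29 of 31 members, against 65% of all genes, and the exceptions were Sqle and Abca1. The members' median was 0.44 and the median of all genes 0.12. KO sham arrays lay above all WT sham arrays for 18 members (58.1%), against 30.6% of all genes, and below them for Sqle alone, against 12.2% of all genes. The 18 comprised 11 of 17 sterol enzymes, 3 of 4 regulators and carriers, 0 of 3 liver X receptor and efflux genes and 4 of 7 fatty acid genes. WT sham replicate 3 was the lowest array in most of these genes, and the median without any 1 array ran from 0.29 to 0.55. Leaving out KO sham replicate 1 or 3 left 1 call, and leaving out WT IRI replicate 1, which enters only through the shared spread, gave 8.

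**Figure D3:**
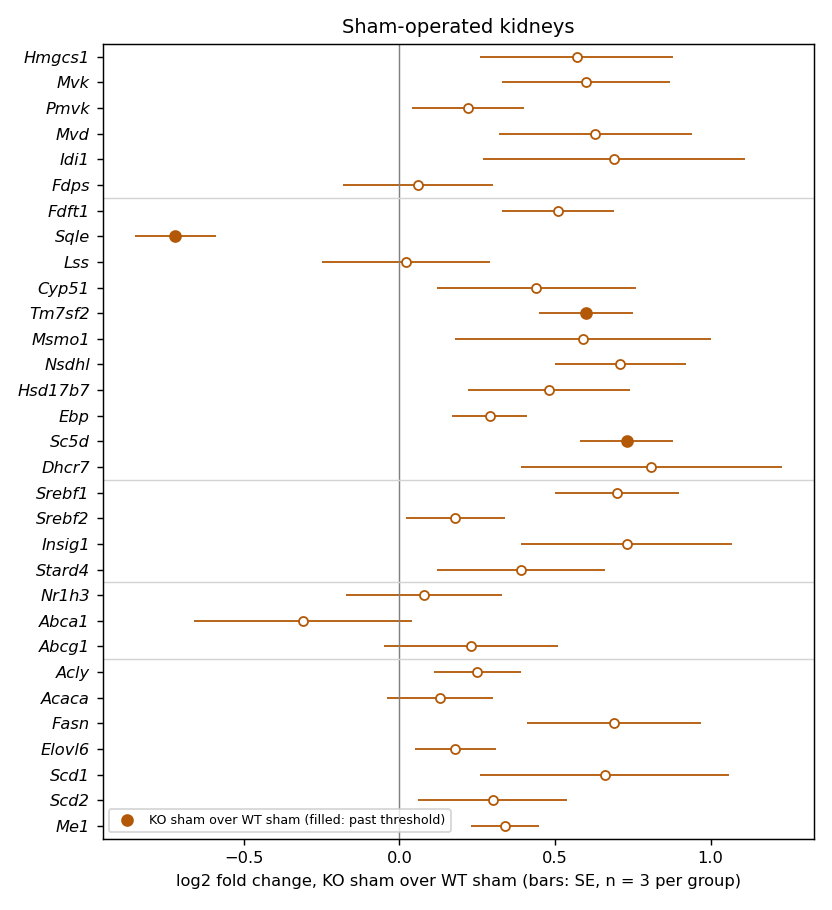
Log2 fold change of KO sham over WT sham for each member, with bars of 1 SE from the limma fit and filled points past the threshold. All points but Sqle and Abca1 lie right of 0, and Sc5d, Tm7sf2 and Sqle are filled.

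Among the mevalonate and isoprenoid enzymes, Idi1 had the largest change. Idi1 encodes isopentenyl-diphosphate isomerase, which interconverts the building blocks of isoprenoids. It read 1.91, 2.26 and 2.34 in KO IRI kidneys, against 3.96, 4.09 and 3.89 in KO sham kidneys. It read 1.17, 2.18 and 2.45 in WT IRI kidneys, against 3.78, 3.80 and 2.28 in WT sham kidneys. The KO groups were far apart, whereas WT sham replicate 3 lay among the WT IRI arrays. Idi1 fell by 1.81 ± 0.42 on the log2 scale in KO (3.50-fold, adjusted p = 0.0328), and the value in WT was -1.36 ± 0.42 (adjusted p = 0.0615). The KO call was lost without any 1 of the 6 KO arrays, at adjusted p from 0.0751 to 0.101. The other measured enzymes of these steps, none of which passed in any comparison, were Hmgcs1, Mvk, Pmvk, Mvd and Fdps, which make HMG-CoA, phosphorylate and decarboxylate mevalonate, and join isoprenoids into farnesyl diphosphate. Their KO IRI fold changes ran from -0.67 for Mvk to -0.07 for Pmvk, and their WT IRI fold changes from -0.67 for Hmgcs1 to 0.02 for Pmvk. In KO sham over WT sham the 6 enzymes ran from 0.06 (Fdps) to 0.69 (Idi1), with 4 of 6 not overlapping.

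Sqle, squalene epoxidase, carries out the first oxygen-dependent step of sterol synthesis, and it passed in WT and between sham groups. Sqle read 3.03, 3.27 and 3.47 in KO IRI kidneys, against 3.51, 3.63 and 3.47 in KO sham kidneys. It read 3.22, 3.42 and 3.30 in WT IRI kidneys, against 4.18, 4.27 and 4.32 in WT sham kidneys. The 3 WT sham arrays were the highest of the 12, with WT sham replicate 3 no lower than the others, and the remaining 9 arrays lay together. Sqle fell after IRI in WT by 0.95 ± 0.13 log2 (1.93-fold, adjusted p = 0.00334), and it was lower in KO sham than in WT sham kidneys, at -0.72 ± 0.13 log2 (1.65-fold, adjusted p = 0.01). Its KO IRI response was -0.28 ± 0.13 (adjusted p = 0.243). Both calls held under all 22 alternative fits, which included each of the 12 arrays left out in turn. One of its 2 probes was bright enough to keep, on chromosome 15 at 59162688 to 59162747 (mouse build mm9).

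Cyp51, the lanosterol demethylase that acts after ring closure, passed after IRI in both genotypes. It read 2.05, 2.79 and 1.98 in KO IRI kidneys, against 4.22, 3.90 and 4.11 in KO sham kidneys. It read 2.39, 2.54 and 1.27 in WT IRI kidneys, against 3.66, 3.67 and 3.57 in WT sham kidneys. Every IRI array lay below every sham array of either genotype. Cyp51 fell by 1.80 ± 0.32 log2 in KO (3.49-fold, adjusted p = 0.0121) and by 1.56 ± 0.32 log2 in WT (2.96-fold, adjusted p = 0.0153). The second probe of the gene gave -1.19 ± 0.23 in KO and -1.25 ± 0.23 in WT. The KO call was lost without KO sham replicate 1 (-1.73, adjusted p = 0.0544), and the WT call without WT sham replicate 1 or 2 (adjusted p = 0.0583 and 0.0584) or when only the WT arrays were fitted (adjusted p = 0.0796).

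Nsdhl and Sc5d act late in the pathway, Nsdhl in removing methyl groups from the sterol ring and Sc5d in placing a double bond in the ring. Nsdhl read 0.96, 1.42 and 1.36 in KO IRI kidneys, against 2.37, 2.07 and 2.37 in KO sham kidneys, and 0.81, 1.32 and 1.37 in WT IRI kidneys, against 1.76, 1.71 and 1.22 in WT sham kidneys. Its 2 KO groups did not overlap, and the WT groups did, through WT sham replicate 3. Nsdhl fell by 1.03 ± 0.21 log2 in KO (2.04-fold, adjusted p = 0.0204), with -0.40 ± 0.21 in WT (adjusted p = 0.233). Sc5d read 2.29, 2.25 and 2.10 in KO IRI kidneys, against 3.04, 2.75 and 2.89 in KO sham kidneys, and 1.93, 1.89 and 2.14 in WT IRI kidneys, against 2.34, 2.27 and 1.88 in WT sham kidneys. KO sham kidneys were the highest of the 4 groups, and the 3 other groups overlapped. Sc5d fell by 0.68 ± 0.15 log2 after IRI in KO (1.60-fold, adjusted p = 0.0264), and it was higher in KO sham than in WT sham kidneys by 0.73 ± 0.15 log2 (1.66-fold, adjusted p = 0.0164). With the kept probes of each gene averaged, neither passed, at -0.83 for Nsdhl (adjusted p = 0.0637) and -0.79 for Sc5d (adjusted p = 0.0966) after IRI in KO, and 0.65 for Sc5d between sham groups (adjusted p = 0.136). The second Nsdhl probe gave -0.63 ± 0.35 after IRI in KO and 0.06 ± 0.35 in WT. The second Sc5d probe gave -1.27 ± 0.41 after IRI in WT, where the first gave -0.18 ± 0.15. The Nsdhl call was also lost without KO sham replicate 1 or 3 or KO IRI replicate 1 or 3 (adjusted p from 0.0506 to 0.0827), and the Sc5d IRI call without any KO array but KO sham replicate 2 (adjusted p from 0.056 to 0.106). The Sc5d sham call was lost without KO sham replicate 1 or 3 (adjusted p = 0.0768 and 0.0628). Sc5d lies on chromosome 9, the chromosome of Jaml, and a part of sequence inherited with the Jaml allele in this difference was not tested.

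The stretches of 250 bases before the start of Cyp51, Idi1, Nsdhl and Sc5d, the sterol enzymes that fell after IRI in KO kidneys, are shown here because the 4 genes moved together. They are RefSeq promoter windows on build GRCm38.p6, at chr5:4104698-4104947 (minus strand), chr13:8885356-8885605 (plus strand), chrX:72918271-72918520 (plus strand) and chr9:42264301-42264550 (minus strand). They are written 5′ to 3′ on the gene's strand, and capitals mark CCAAT or its reverse complement ATTGG, the CCAAT box, to which NF-Y binds beside SREBP in many sterol genes.
Cyp51: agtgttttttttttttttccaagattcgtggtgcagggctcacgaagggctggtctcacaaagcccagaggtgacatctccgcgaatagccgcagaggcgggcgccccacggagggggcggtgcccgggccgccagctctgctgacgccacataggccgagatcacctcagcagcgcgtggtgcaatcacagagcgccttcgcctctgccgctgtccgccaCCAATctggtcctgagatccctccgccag
Idi1: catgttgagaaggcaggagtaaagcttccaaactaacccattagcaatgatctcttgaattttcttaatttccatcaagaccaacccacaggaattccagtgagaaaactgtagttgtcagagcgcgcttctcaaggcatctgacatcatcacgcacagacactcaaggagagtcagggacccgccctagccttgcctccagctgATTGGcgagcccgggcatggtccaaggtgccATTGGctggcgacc
Nsdhl: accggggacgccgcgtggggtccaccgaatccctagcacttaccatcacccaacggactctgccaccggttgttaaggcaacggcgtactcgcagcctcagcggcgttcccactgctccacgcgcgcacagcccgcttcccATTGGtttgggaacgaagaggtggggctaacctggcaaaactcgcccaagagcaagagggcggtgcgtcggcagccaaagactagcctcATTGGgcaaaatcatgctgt
Sc5d: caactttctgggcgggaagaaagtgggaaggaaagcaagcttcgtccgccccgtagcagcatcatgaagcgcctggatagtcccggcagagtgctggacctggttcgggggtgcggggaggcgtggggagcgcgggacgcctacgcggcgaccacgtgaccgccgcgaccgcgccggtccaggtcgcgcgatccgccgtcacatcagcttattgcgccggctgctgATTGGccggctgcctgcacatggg
The motifs were searched on both strands from 250 bases before to 50 after the start, and a gene counts as holding one if any of its RefSeq windows does. The CCAAT box was held by all 14 sterol enzymes that had a window and by 20 of the 24 members that had one (83.3%), against 41.1% of 27025 genes. A sterol regulatory element written TCACNCCAC was held by 1 of the 24 members, Hmgcs1, against 1.44% of all genes. CACGTG was held by 5 of the 24 members (20.8%), against 8.09% of all genes, and a liver X receptor element (repeated AGGTCA, spaced by any 4 bases) by 0 of the 24, against 0.0148%. No window was available for Sqle, Fdps, Fdft1, Stard4, Abcg1, Scd1 or Scd2. A match is a description of these letters and no evidence of binding.

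Tm7sf2, a sterol reductase, passed between sham groups, and Dhcr7, which makes the last reduction to cholesterol, had the largest sham difference of the members without passing. Tm7sf2 read 1.87, 2.04 and 1.96 in KO IRI kidneys, against 2.38, 2.67 and 2.27 in KO sham kidneys, and 1.70, 1.68 and 1.74 in WT IRI kidneys, against 1.96, 2.02 and 1.54 in WT sham kidneys. KO sham arrays were the highest of the 12. It was higher in KO sham than in WT sham kidneys by 0.60 ± 0.15 log2 (1.51-fold, adjusted p = 0.0383), a call kept under 7 of 22 alternatives and lost without WT sham replicate 3 (0.45, adjusted p = 0.11), without any other single sham array, and without WT IRI replicate 3 or any 1 KO IRI array. Dhcr7 read -0.51, -0.20 and -0.45 in KO IRI kidneys, against 0.66, 0.20 and 0.52 in KO sham kidneys, and -1.78, -0.30 and -0.35 in WT IRI kidneys, against 0.07, 0.04 and -1.15 in WT sham kidneys. WT IRI replicate 1 and WT sham replicate 3 were the 2 lowest of the 12 arrays, and the sham difference was 0.81 ± 0.42 (adjusted p = 0.269).

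Of the other enzymes from squalene on, none passed in any comparison. Fdft1 encodes squalene synthase, Lss lanosterol synthase, Msmo1 a sterol methyl oxidase, Hsd17b7 a 3-keto sterol reductase and Ebp a sterol isomerase. After IRI in KO their fold changes ran from -0.84 ± 0.41 for Msmo1 to -0.04 ± 0.26 for Hsd17b7, and after IRI in WT from -0.72 ± 0.27 for Lss to 0.56 ± 0.26 for Hsd17b7. In KO sham over WT sham these 5 enzymes ran from 0.02 for Lss to 0.59 for Msmo1.

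**Figure D4:**
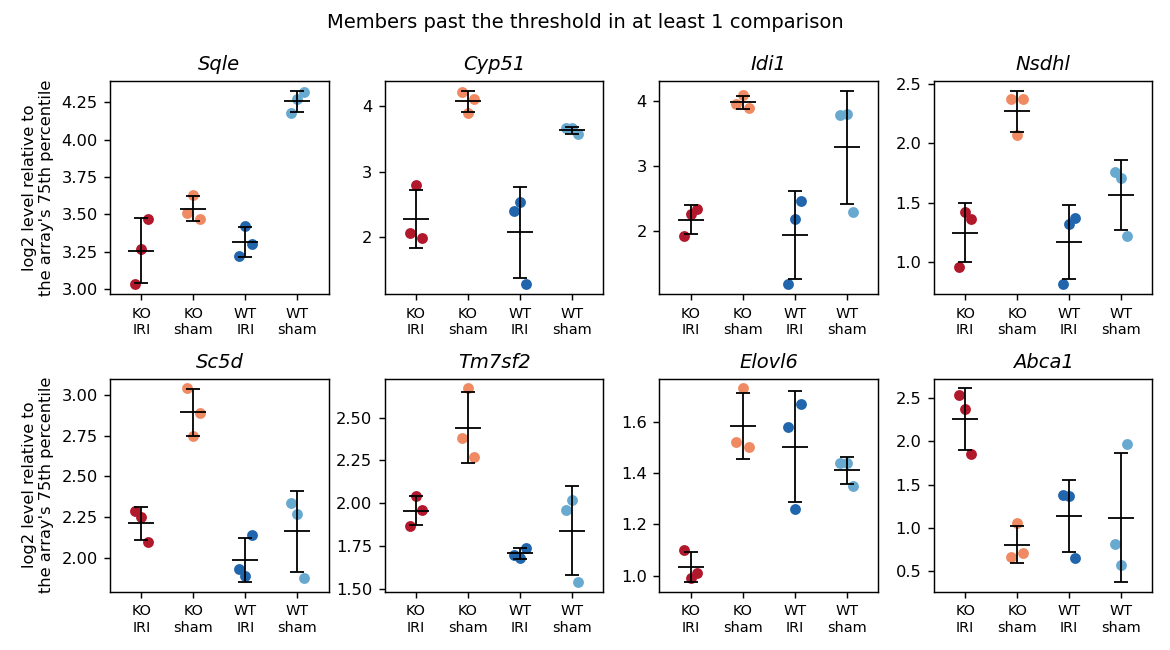
Log2 levels of the 8 members past the threshold in at least 1 comparison, with a point for each array and bars of the group mean ± SD (n = 3 per group). Sqle is high in WT sham kidneys alone, Cyp51 is low in both IRI groups, Sc5d and Tm7sf2 are highest in KO sham kidneys, Elovl6 is lowest and Abca1 highest in KO IRI kidneys.

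None of the regulators passed in any comparison. Srebf1 and Srebf2 encode the SREBP factors, Insig1 their retention partner and Stard4 a cytosolic sterol carrier. After IRI in KO all 4 were below 0, from -0.43 ± 0.34 for Insig1 to -0.32 ± 0.20 for Srebf1, and in WT they ran from -0.47 ± 0.27 for Stard4 to 0.34 ± 0.20 for Srebf1. Insig1 had one of the 3 largest sham differences of the members. It read -1.31, -1.44 and -2.27 in KO IRI kidneys, against -1.27, -1.10 and -1.36 in KO sham kidneys. It read -1.49, -2.85 and -2.28 in WT IRI kidneys, against -1.87, -1.76 and -2.28 in WT sham kidneys. The KO sham arrays lay above all WT sham arrays, by 0.73 ± 0.34 log2 between the means, which did not pass (adjusted p = 0.224), and the IRI groups overlapped their sham groups. Between sham groups Srebf1 came closest to the threshold. The difference was 0.70 ± 0.20 log2 (adjusted p = 0.0548), and the groups did not overlap.

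Of the liver X receptor and efflux genes, Abca1 passed after IRI in KO. Abca1 moves cholesterol from cells to apolipoprotein A-I, Abcg1 moves it to high-density lipoprotein, and Nr1h3 encodes liver X receptor alpha. Abca1 read 2.54, 2.38 and 1.86 in KO IRI kidneys, against 0.66, 1.05 and 0.70 in KO sham kidneys. It read 1.38, 1.37 and 0.65 in WT IRI kidneys, against 0.81, 0.57 and 1.97 in WT sham kidneys. The KO groups did not overlap, the WT groups did, and WT sham replicate 3 reached into the range of the KO IRI arrays. Abca1 rose by 1.46 ± 0.35 log2 in KO (2.74-fold, adjusted p = 0.04), and the WT value was 0.02 ± 0.35 (adjusted p = 0.983). The KO call was lost under 10 of 22 alternatives, among them each of the 6 KO arrays left out and WT sham replicate 1 left out (adjusted p from 0.057 to 0.128). A second, dimmer probe, well above background on 7 of 12 arrays, gave 2.09 ± 0.75 in KO. Abcg1 and Nr1h3 had values of -0.12 ± 0.28 and -0.10 ± 0.25 in KO and -0.82 ± 0.28 and -0.31 ± 0.25 in WT, none past the threshold.

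Among the fatty acid genes, Elovl6 passed after IRI in KO. Elovl6 elongates palmitate-length fatty acids, and it is a known target of SREBP-1. It read 1.10, 0.99 and 1.01 in KO IRI kidneys, against 1.52, 1.73 and 1.50 in KO sham kidneys. It read 1.58, 1.26 and 1.67 in WT IRI kidneys, against 1.44, 1.44 and 1.35 in WT sham kidneys. The 3 KO IRI arrays were the lowest of the 12, and the WT groups overlapped. Elovl6 fell by 0.55 ± 0.13 log2 in KO (1.47-fold, adjusted p = 0.0328), with 0.09 ± 0.13 in WT (adjusted p = 0.67), and the KO call was lost without any 1 of the 6 KO arrays and without WT sham replicate 1 or 2 (adjusted p from 0.0568 to 0.111). Acly makes cytosolic acetyl-CoA, Acaca malonyl-CoA and Fasn palmitate, Scd1 and Scd2 place the first double bond, and Me1 supplies NADPH. After IRI in KO these 6 genes ran from -0.83 ± 0.40 for Scd1 to -0.06 ± 0.17 for Acaca, all below 0, with Me1 nearest the threshold (-0.39 ± 0.11, adjusted p = 0.067). In WT they ran from -0.75 ± 0.24 for Scd2 (adjusted p = 0.0691) to 0.41 ± 0.28 for Fasn, and Acly, at 0.35 ± 0.14, did not overlap between groups but did not pass (adjusted p = 0.136). In KO sham over WT sham the 7 genes ran from 0.13 for Acaca to 0.69 for Fasn.

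The IRI responses of the genotypes, which share no array, pointed the same way for 22 of 31 members, against 67.3% of all genes. Both were below 0 for 21 members, against 39% of all genes. The difference between them, tested as the KO response minus the WT response, passed for 0 of 31 members in limma, where 0.0694% of all genes passed. At an unadjusted p under 0.05 there were 8 members (25.8%), against 9.77% of all genes. The 2 with the smallest p were Sqle, at 0.66 with an interval of 0.26 to 1.07 (adjusted p = 0.314), and Elovl6, at -0.65 with an interval of -1.05 to -0.24 (adjusted p = 0.324), both 95% intervals. Abca1 differed by 1.44 (interval 0.33 to 2.55, adjusted p = 0.405) and Cyp51 by -0.24 (interval -1.24 to 0.76, adjusted p = 0.865). No member's response was thus shown to differ between genotypes. The difference was below 0 for 21 of 31 members, against 59.8% of all genes, with a median of -0.19 against -0.09.

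Between KO IRI and WT IRI kidneys the limma test called 0 of 31 members, against 1.93% of all genes. At an unadjusted p under 0.05 there were 5 (16.1%), against 21.7% of all genes, and the smallest adjusted p values were those of Scd2 (0.96 ± 0.24, adjusted p = 0.0719) and Elovl6 (-0.47 ± 0.13, adjusted p = 0.0908). The fold change was above 0 for 22 of 31 members, against 54.3% of all genes, with a median of 0.20 against 0.04. KO IRI arrays lay above all WT IRI arrays for 6 members (Mvk, Tm7sf2, Ebp, Abca1, Abcg1 and Scd2; 19.4%), against 12.3% of all genes, and below them for Elovl6, against 9.45%. Abca1 differed by 1.13 ± 0.35 (adjusted p = 0.121) and Abcg1 by 0.93 ± 0.28 (adjusted p = 0.109). Leaving out WT IRI replicate 2 gave 3 calls.

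Of 45 further genes of sterol and fatty acid metabolism, 44 were measured. After IRI in KO 1 rose and 2 fell (6.82% in all, against 6.16% of all genes), and after IRI in WT 5 rose and 4 fell (20.5%, against 12%). Between sham groups 1 was higher and 0 lower in KO (2.27%, against 8.85%). After IRI limma called 0 between genotypes, with 10 at an unadjusted p under 0.05 (22.7%, against 21.7% of all genes). It called 0 in the difference of responses, with 4 at an unadjusted p under 0.05 (9.09%, against 9.77%). Fads2, a fatty acid desaturase, fell by 0.69 ± 0.16 in KO and by 0.64 ± 0.16 in WT (adjusted p = 0.0337 and 0.0305). Pgd, which makes NADPH in the pentose phosphate pathway, rose by 0.86 ± 0.16 in KO and by 0.90 ± 0.16 in WT (adjusted p = 0.0144 and 0.0096). In WT G6pdx of the same pathway (0.72 ± 0.16), the triglyceride enzymes Agpat2 (0.65 ± 0.15) and Dgat1 (0.43 ± 0.11) and the phospholipid enzyme Lpcat3 (0.50 ± 0.14) also rose, and Thrsp (-1.34 ± 0.31) and the SREBP protease Mbtps1 (-0.44 ± 0.10) also fell. The sterol transporter Abcg5 was the 1 gene called higher in KO sham than in WT sham kidneys, at 2.27 ± 0.53 (adjusted p = 0.0282). Its probe was well above background on 2 of 3 KO sham arrays and 0 of 3 WT sham arrays, and on 1 KO IRI and 1 WT IRI array. Without the KO sham arrays it would not have met the filter of 3 arrays. Both the call and the size of this difference are therefore uncertain. Set against the lowest level well above background on each WT sham array, the KO sham mean was 1.96-fold higher. That mean includes a KO sham array that was not well above background.

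Markers of other cell types moved beside these genes. For the counts that follow, 2.1% of all genes rose and 4.05% fell after IRI in KO, and 6.08% rose and 5.9% fell in WT. Between sham groups 5.12% of all genes were called higher and 3.73% lower in KO, and 30.6% were higher without overlap. Of 13 adipocyte markers, which perirenal fat on the kidney would carry, 2 rose after IRI in KO and 4 in WT, and their summed signal, in multiples of the 75th percentile, was 38.8 to 40.6 in KO IRI against 19.1 to 28.9 in KO sham kidneys, and 40.1 to 81.5 in WT IRI against 14.1 to 16.8 in WT sham kidneys. In KO the 2 were Cidec and Plin4, while 7 of the 13 had a fold change below 0, among them Adipoq (-0.78 ± 1.45) and Retn (-1.60 ± 1.38), and the median was -0.07. In WT 11 of 13 were above 0, with a median of 2.53. None was at 0, and Adipoq was well above background on 10 of 12 arrays, Plin1 on 8 and Ucp1 on 4. Fabp4 was the brightest of the 13 on every array and gave the largest part of the adipocyte sum. It read 4.40 to 4.73 in KO IRI against 3.83 to 4.06 in KO sham kidneys. Cidec and Plin4 also added to the rise of the sum in KO, so that rise is not that of Fabp4 alone. Of 9 proximal tubule markers, 4 fell after IRI in each genotype, and 7 were higher in KO sham than in WT sham kidneys without overlap, 1 past the threshold. Their sum was 1030 to 1140 in KO IRI against 1480 to 1690 in KO sham kidneys, and 1010 to 1160 in WT IRI against 1180 to 1320 in WT sham kidneys. The proximal tubule sum moved in the same direction as the mean of the sterol enzymes in both IRI comparisons and between sham groups, although in WT the sterol means overlapped. Of 5 thick limb and distal markers 2 fell after IRI in each genotype. Their sum moved in these directions too, with overlap in WT and between sham groups. It was 348 to 411 in KO IRI, 486 to 541 in KO sham, 369 to 457 in WT IRI and 443 to 523 in WT sham kidneys. Of 4 collecting duct markers 0 passed, and 3 were higher in KO sham than in WT sham kidneys without overlap. Their sum was 39.7 to 58.1 in KO sham against 23.4 to 32.9 in WT sham kidneys. Of 2 podocyte markers 0 passed. Of 5 T and NK cell markers 0 fell after IRI in KO and 5 in WT, and 3 were lower in KO sham than in WT sham kidneys, with sums of 0.55 to 0.664 in KO IRI, 0.763 to 1.56 in KO sham, 0.619 to 0.789 in WT IRI and 1.72 to 14.1 in WT sham kidneys. WT sham replicates 1 and 2, at 14.1 and 13.5, stood far above all other arrays in this sum, and WT sham replicate 3 read 1.72. Of 8 macrophage markers 1 rose (Cd68) and 1 fell (Csf1r) after IRI in KO, 1 rose and 3 fell after IRI in WT, and 3 were lower in KO sham than in WT sham kidneys. Of 4 proliferation markers 0 passed after IRI in KO, 2 fell after IRI in WT, and 3 were lower in KO sham than in WT sham kidneys. The proliferation sum was also highest in WT sham replicates 1 and 2, at 6.59 and 6.39, against 2.68 in WT sham replicate 3. Adrenal cortex markers, which would mark carried-over steroid-making tissue, summed to at most 0.838 on any array, and Cyp11a1 and Cyp11b1 were not measured. The part of these cell types in the sterol and fatty acid results was not tested.

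**Figure D5:**
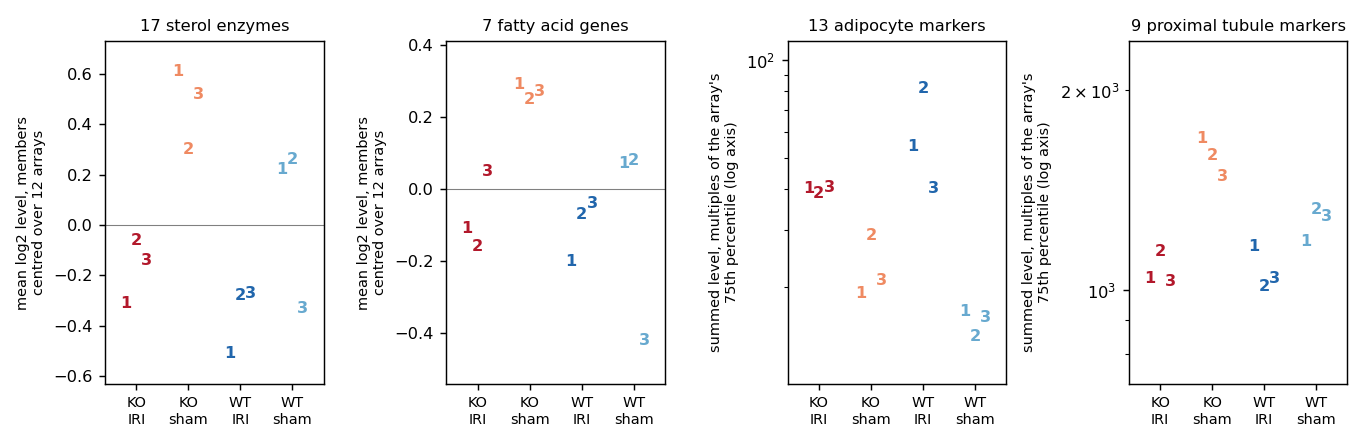
Per array (digits are replicate numbers), from left to right, the mean centred log2 level of the 17 sterol enzymes and of the 7 fatty acid genes, and the summed signal of 13 adipocyte and 9 proximal tubule markers on log axes. KO sham kidneys are highest for the sterol enzymes and the proximal tubule sum, and the adipocyte sum is higher in both IRI groups than in their sham groups. Fabp4 gives the largest part of the adipocyte sum.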

How the data were processed

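Total RNA of 12 kidneys was read on one-colour Agilent arrays. Per the file headers, Agilent Feature Extraction 10.7.1.1 made the deposited spot intensities, with spatial and multiplicative detrending within each array, local background correction off, and no scaling between arrays. The authors also deposited a table of log2 values, which followed the log2 processed signal at r of at least 0.9995 within each array. The submitters' processing notes name limma without a version.

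Control spots and flagged outlier spots were left out, spots of a probe were averaged, and log2 processed signal was reduced by its array's 75th percentile. Probes well above background on at least 3 of 12 arrays were kept (39449 of 56605), and the brightest kept probe stood for its gene, giving 25947 genes. Symbols were updated through RefSeq accessions for 32994 probes, and 23611 kept the file's name. limma 3.58.1 in R 4.3.3 fitted 1 coefficient per group over all arrays, with 8 residual degrees of freedom. The two-sided p-values were adjusted over all genes (Benjamini-Hochberg), with a threshold of 0.05. Errors of fold changes are SE. The precision is limited by 3 arrays per group, and no probe was saturated.

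Groups and replicate numbers came from the labels. The sources used here do not say whether each sample came from its own animal, so p-values measure the spread between these samples. Values in every sample are given for members past the threshold in any comparison and for the 3 largest changes of members in each IRI response and between sham groups. The members and lists were chosen with earlier results of these data known. The fit was tested on simulated data. The alternatives were another background correction, quantile normalization, the authors' table, weaker and stricter filters, averaged probes, array weights, fitting only the groups compared, a replicate block and each array left out. Leaving out WT sham replicate 3 and WT IRI replicate 1 together was added after seeing the data. Promoter windows are RefSeq's on GRCm38.p6, and probe coordinates are the files', on mm9. Some further genes of the pathway are counted but not reported here by name.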

Additional observations from a re-analysis of the deposited data

How the results depend on the processing

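With 3 arrays per group the counts of members past the threshold depended on the fit, while the members' median fold change kept its sign in every comparison and alternative run. Leaving out 1 array in turn gave 0 to 8 members for KO IRI against KO sham, 1 to 5 for WT IRI against WT sham, 1 to 8 for KO sham against WT sham, 0 to 3 for KO IRI against WT IRI and 0 to 0 for the difference of responses. These ranges are given without the shares of all genes, so they do not single out the members. With array weights, whose estimate stopped before convergence, the counts were 16, 22, 18, 9 and 11, when 27.7%, 60.6%, 46.6%, 30.8% and 25.3% of all genes passed. Without both WT sham replicate 3 and WT IRI replicate 1, an alternative chosen after seeing the data, they were 12 for KO IRI, 5 for WT IRI and 1 between genotypes after IRI, when 14.4%, 13.5% and 3.18% of all genes passed. Averaging the kept probes gave 3 for KO IRI (5.63% of all genes). Fitting only the groups compared gave 1 for WT IRI (1.61% of all genes) and 6 between sham groups (15.6%). The cause of these shifts was not tested.

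Same-numbered arrays of different groups correlated in their deviations at -0.267 to 0.151. Differently numbered arrays were not compared, so this cannot settle whether replicate numbers pair the samples. The replicate block gave 3 members for KO IRI (4.44% of all genes). Slide as a block was not run, since each genotype lay on 1 slide. Over 22 alternatives Sqle kept both its calls, Cyp51 kept 21 in KO and 19 in WT, and Tm7sf2 kept 7.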

Other observations

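The following genes and probes were chosen after their values were seen. In WT IRI replicate 1 enzymes of the one pathway stood at opposite ends of their group. Msmo1 read 4.20 there against 2.80 and 3.38 in WT IRI replicates 2 and 3, and Fdft1 read 2.90 against 2.45 and 2.26. Hmgcs1 read 5.05 there against 6.27 and 6.13, Lss read -0.18 against 0.88 and 0.83, and Dhcr7 read -1.78 against -0.30 and -0.35.

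Probes of a member disagreed in some genes. The dimmer of the 2 Hmgcs1 probes gave -1.23 ± 0.27 after IRI in KO and 1.11 ± 0.27 between sham groups, where the brighter gave -0.64 ± 0.31 and 0.57 ± 0.31. One Msmo1 probe gave 1.72 ± 0.43 after IRI in WT, against 0.48 ± 0.41 and 0.53 ± 0.42 for the others, and its difference of responses was -2.73 ± 0.61. One Lss probe gave 0.73 ± 0.25 between sham groups, where the other 2 gave 0.02 ± 0.27 and 0.04 ± 0.29. Errors are SE from limma over all kept probes, with 3 arrays per group.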
